A study of Rattus norvegicus with 54 samples.

Results

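The hearts compared here came from 6 male wild-type Wistar rats of the control group (C), which had food and water ad libitum and were left undisturbed. They were chosen by their rat names as the C rats collected at ZT9, 9 h after lights on and late in the light phase (C19, C27, and C35), and at ZT21, 9 h after lights off and late in the dark phase (C22, C30, and C38). They are 6 of the 54 rats of the series and 6 of the 18 C rats, of which the other 12 were collected at ZT1, ZT5, ZT13, and ZT17 (n = 3 per time). The rats were 7 to 8 weeks old at the start of a 5-week protocol under a light and a dark phase of 12 h each, were housed singly, and were collected on a Saturday. Shift work rats were of the same strain, sex, and age and spent ZT2 to ZT10 of each weekday in a slowly rotating drum, with food at all times (W rats) or with no food while working (WRF rats). Each rat is a separate animal and gave 1 library of polyA RNA. By the study's methods the hearts were crushed with their atria, but 4 of the 6 libraries held little RNA of atrial marker genes.

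The circadian clock is a feedback loop of transcription factors that runs in nearly every cell, cardiomyocytes included. The activators BMAL1 (gene Arntl) and CLOCK bind E-box sequences and switch on the period and cryptochrome genes, whose proteins then repress the activators. A second loop joins them, in which REV-ERBα and REV-ERBβ (Nr1d1 and Nr1d2) repress Arntl through ROR elements, and the PAR bZIP factors (Dbp, Tef) and their competitor NFIL3 carry the rhythm to output genes through D-boxes. Rats are active and feed mainly in the dark, so that ZT9 falls at the end of the rest phase and ZT21 near the end of the active phase. In the heart, clock output is known to reach ion channels, the handling of glucose and fatty acids, and growth signaling.

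Values are fpkm, fragments per kilobase of transcript scaled to the mapped fragments of the library, so that levels of different genes can be set side by side. Differences are ZT9 minus ZT21 on the log2(fpkm + 1) scale with the standard error (SE) of a limma fit to all 18 C rats, which understates the change of genes near 0. A gene was called when its Benjamini-Hochberg adjusted p over the 10257 genes of the table was under 0.05 in this fit. All 6 libraries held RNA of heart muscle, with 1023 to 2425 fpkm of the muscle creatine kinase gene Ckm. Atrial RNA was present in quantity in 1 rat of each time: the atrial light chain gene Myl7 stood at 16085 fpkm in C27 (ZT9) and at 5988 in C22 (ZT21) and at 5.98 to 21.3 in the other 4 rats. The sum over 6 atrial markers was 55961 and 17742 fpkm in these 2 rats and 117 to 207 in the other 4. Red cell genes summed to between 28219 and 39991 fpkm at ZT9 and between 9953 and 29046 at ZT21. Of the 5 red cell genes measured, 4 had the higher mean at ZT9. Slc4a1, higher at ZT21, was the exception and the only one at an unadjusted p under 0.05 (limma). T cell genes summed to 11.4 to 24.5 fpkm at ZT9 and 8.75 to 12.6 at ZT21, and the part of blood in the differences was not tested. In such bulk RNA, fewer cells of a type and less RNA per cell cannot be told apart.

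Hearts of the late light and the late dark phase differed in few genes by this test. Of 10257 genes, 9 were called (0.0877%), 6 higher at ZT9 and 3 higher at ZT21. Dbp, Nr1d1, Ciart, and Nr1d2, which encode clock repressors and a clock output factor, together with Pik3ip1 and Gadd45b, were higher at ZT9. Arntl, Cry1, and Ppp1r3c were higher at ZT21. At an unadjusted p under 0.05, 271 genes were higher at ZT9 (2.64%) and 146 at ZT21 (1.42%), and the 3 rats of one time lay above the 3 of the other in 384 genes for ZT9 (3.74%) and 159 for ZT21 (1.55%). This lean toward ZT9 depended on the scale: the median difference of all genes was 0.06, and after scaling by median of ratios, which moved that median to -0.02, the 3 rats were apart in 303 genes for ZT9 and 293 for ZT21.

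**Figure D1:**
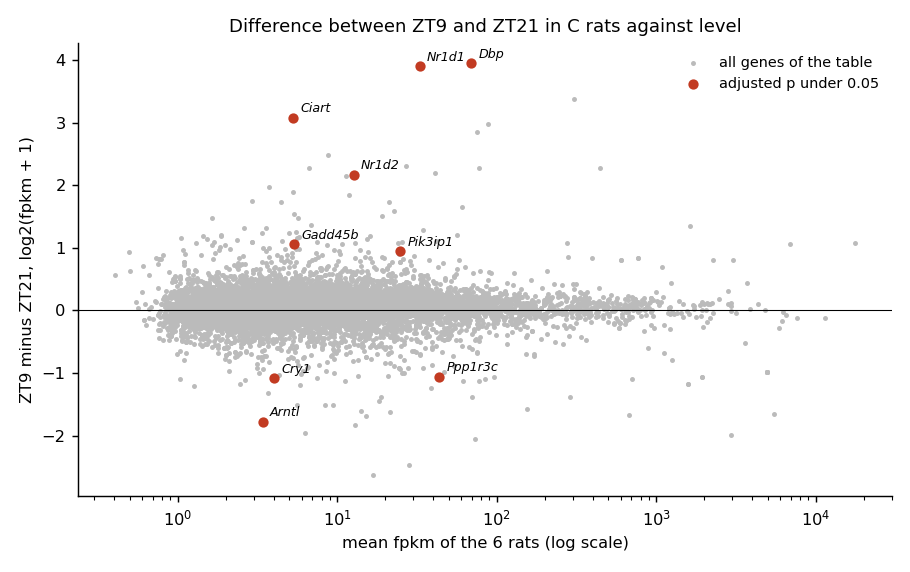
Each point is 1 gene of the table, with the mean fpkm of the 6 rats on a log axis and the ZT9-minus-ZT21 difference of log2(fpkm + 1) on the other, and red points are the 9 called genes. Dbp and Nr1d1 lie highest among the called genes, near 4 on the log2 scale, while some uncalled genes with a wide spread between rats lie above Gadd45b and Pik3ip1.

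Dbp, an activator of D-box genes, stood at 142, 118, and 132 fpkm in the rats at ZT9 and at 6.51, 7.00, and 9.23 in those at ZT21. The means were 131 ± 11.8 and 7.58 ± 1.45 (SD, n = 3), a ratio of 17.3. The difference was 3.95 ± 0.16 on the log2 scale (limma, adjusted p = 1.6e-09), and the lowest rat at ZT9 was far above the highest at ZT21. Nr1d1, which encodes REV-ERBα, had 62.8, 67.9, and 57.3 fpkm at ZT9 and 3.70, 2.59, and 3.52 at ZT21, and the groups were equally well apart. The ratio of its means was 19.1 and the difference 3.904 ± 0.17 (limma, adjusted p = 2.2e-09). Its paralog Nr1d2, which encodes REV-ERBβ, was less even among the rats of ZT9. It stood at 17.3, 32.5, and 14.7 fpkm there, with the atrium-rich rat C27 highest, and at 5.18, 3.91, and 2.50 at ZT21 (2.17 ± 0.33; limma, adjusted p = 0.0104). Its call rested on single rats, with an adjusted p of 0.0505 without C27, 0.0613 without C30, and 0.0867 without C38. Ciart, a repressor of the CLOCK and BMAL1 dimer, was nearly silent at ZT21, with 0.386, 0.155, and 0.457 fpkm against 11.1, 8.56, and 11.2 at ZT9 (3.08 ± 0.18; limma, adjusted p = 7.8e-08). At such levels the pseudocount of 1 holds the log2 difference down, and the ratio of the means was 30.9.

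Arntl and Cry1 had the opposite order. Arntl, the activator of the loop, stood at 0.403, 1.28, and 1.29 fpkm at ZT9 and at 7.33, 5.95, and 4.15 at ZT21. All rats of ZT21 were above all of ZT9, by 5.85-fold in the means (-1.78 ± 0.24; limma, adjusted p = 0.00474). Cry1, which encodes a cryptochrome that represses CLOCK and BMAL1, had 2.53, 2.23, and 1.92 fpkm at ZT9 and 6.49, 5.89, and 5.13 at ZT21 (-1.08 ± 0.15; limma, adjusted p = 0.00548). Both are genes of low level in the heart, under 10 fpkm in each of the 6 rats.

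Of the called genes, 3 are not part of the clock itself. Ppp1r3c, which encodes a subunit that brings protein phosphatase 1 to glycogen and favors glycogen synthesis, stood at 23.6, 28.5, and 32.5 fpkm at ZT9 and at 56.96, 58.9, and 62.05 at ZT21. The 3 rats of ZT21 were close to one another and 2.10-fold above ZT9 in the mean (-1.06 ± 0.14; limma, adjusted p = 0.00474). Pik3ip1, which encodes an inhibitor of phosphatidylinositol 3-kinase, had 30.5, 40.3, and 28.7 fpkm at ZT9 and 19.03, 14.04, and 17.04 at ZT21 (0.94 ± 0.14; limma, adjusted p = 0.00708). Gadd45b, a stress-inducible gene, had 7.97, 5.74, and 9.11 fpkm at ZT9 and 4.47, 2.19, and 2.86 at ZT21 (1.06 ± 0.19; limma, adjusted p = 0.0493), so that it passed the threshold narrowly. The call of Pik3ip1 was lost without C30 (limma, adjusted p = 0.0602), and that of Gadd45b without C19, C30, C35, or C38 (limma, adjusted p = 0.180 to 0.268). Without all 6 C rats above 100 fpkm of Myl7, which leaves 2 rats at each of ZT9 and ZT21, Dbp, Nr1d1, Ciart, and Gadd45b were called, and Arntl, Nr1d2, Pik3ip1, Ppp1r3c, and Cry1 had an adjusted p of 0.0863, 0.0863, 0.0945, 0.129, and 0.179 (limma), each with a difference in the same direction as in all rats.

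**Figure D2:**
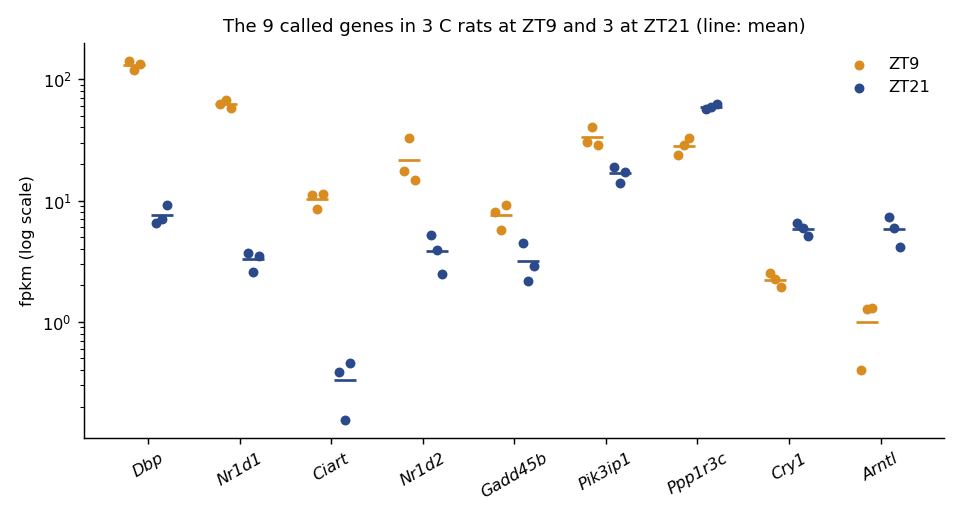
Points are single C rats and lines the means of 3 rats, as fpkm on a log axis, for the 9 called genes at ZT9 (orange) and ZT21 (blue). The rats of the 2 times do not overlap for any of the 9 genes, and the gap is widest for Ciart, Nr1d1, and Dbp.

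The rats left out of the comparison place both times in the daily course of these genes. The means of Dbp, Nr1d1, Ciart, and Nr1d2 in C rats were highest at ZT9 of the 6 times, and those of Ppp1r3c and Cry1 were lowest there. For Nr1d2 this rested on the atrium-rich rat C27, at 32.5 fpkm. C19 and C35 had 17.3 and 14.7 fpkm, and the rats of ZT13 had 19.1, 22.9, and 14.1. Arntl reached its lowest mean, 0.264 fpkm, at ZT13 and its highest, 12.1 fpkm, at ZT1, so that neither ZT9 nor ZT21 is an extreme for it. A cosine of 24 h fitted to only the 12 C rats of the other 4 times gave the same sign of the ZT9-minus-ZT21 difference for 9 of the 9 called genes. That sign matched in 50.7% of all genes, in 69.0% of those higher at ZT9 at an unadjusted p under 0.05, and in 81.5% of those higher at ZT21. For Dbp the 12 rats gave 2.83, for Nr1d1 3.31, for Arntl -1.18, and for Gadd45b 0.22.

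Other pairs of times 12 h apart gave more calls. Between ZT1 and ZT13, 37 genes were called (0.361%), and between ZT5 and ZT17, 32 (0.312%). These rats differ from those at ZT9 and ZT21, but the 3 comparisons share the spread estimated in 1 fit. Of the 9 genes, 7 were also called between ZT1 and ZT13 (77.8% of the 9 and 18.9% of the 37), and Nr1d1, Arntl, and Cry1 were also called between ZT5 and ZT17. Gadd45b was called only between ZT9 and ZT21 of these pairs; its adjusted p was 0.776 for ZT1 against ZT13 and 0.179 for ZT5 against ZT17 (limma), and whether its difference varies among the pairs was not tested.

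**Figure D3:**
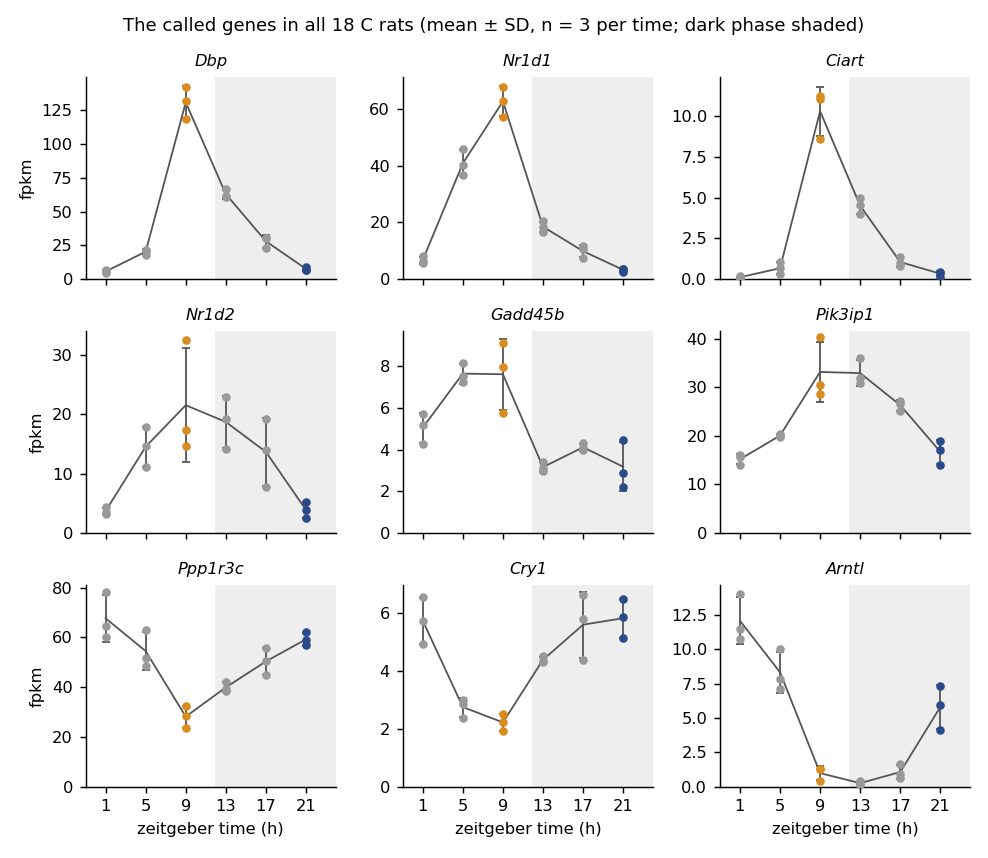
Each panel shows 1 called gene in all 18 C rats, as fpkm against zeitgeber time in h, with points for rats, lines and bars for the mean ± SD (n = 3), and the dark phase shaded. Dbp, Nr1d1, and Ciart rise to a sharp maximum at ZT9, where Ppp1r3c and Cry1 are lowest.

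The promoters of the called genes are shown because the clock acts through short elements near the starts of its targets. RefSeq windows from 250 bases before to 50 bases after a start (build GRCr8) were found for 8 of the 9 genes, and Cry1 was not among them. They were searched on both strands for the E-box CACGTG, the ROR element TAGGTCA, the D-box TTATGTAA, and the cAMP element TGACGTCA, which do not overlap in these windows. Of all 33469 windows, 6.42% hold this E-box, 2.63% the ROR element, 0.893% the D-box, and 1.83% the cAMP element. In the 8526 windows of genes measured here the shares were 9.69%, 1.82%, 0.422%, and 3.16%. The window of Ciart (chr2:186112197-186112496, minus strand) holds 3 E-boxes, those of Ppp1r3c (chr1:243878478-243878777, minus strand) and Gadd45b (chr7:9430669-9430968, minus strand) hold 1 each, and that of Arntl (Bmal1 in RefSeq, chr1:176766078-176766377, plus strand) holds a ROR element. They are given 5′ to 3′ in the direction of the gene, with the elements in capitals.
Ciart: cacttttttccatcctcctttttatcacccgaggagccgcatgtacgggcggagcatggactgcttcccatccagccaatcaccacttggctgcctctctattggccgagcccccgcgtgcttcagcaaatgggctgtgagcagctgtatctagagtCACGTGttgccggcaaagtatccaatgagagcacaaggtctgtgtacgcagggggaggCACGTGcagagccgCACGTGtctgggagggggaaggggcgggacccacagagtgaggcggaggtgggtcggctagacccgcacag
Arntl: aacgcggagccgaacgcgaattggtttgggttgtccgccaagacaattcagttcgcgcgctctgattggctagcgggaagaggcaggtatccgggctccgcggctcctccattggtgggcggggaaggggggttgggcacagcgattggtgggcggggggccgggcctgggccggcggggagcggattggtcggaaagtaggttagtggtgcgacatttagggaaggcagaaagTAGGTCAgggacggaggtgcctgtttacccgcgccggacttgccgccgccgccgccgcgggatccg
Ppp1r3c: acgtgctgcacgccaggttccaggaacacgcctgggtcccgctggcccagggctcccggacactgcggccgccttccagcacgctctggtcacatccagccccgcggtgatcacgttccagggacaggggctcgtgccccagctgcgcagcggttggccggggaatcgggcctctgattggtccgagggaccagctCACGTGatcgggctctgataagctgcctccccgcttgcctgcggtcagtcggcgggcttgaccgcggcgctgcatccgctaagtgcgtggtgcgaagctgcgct
Gadd45b: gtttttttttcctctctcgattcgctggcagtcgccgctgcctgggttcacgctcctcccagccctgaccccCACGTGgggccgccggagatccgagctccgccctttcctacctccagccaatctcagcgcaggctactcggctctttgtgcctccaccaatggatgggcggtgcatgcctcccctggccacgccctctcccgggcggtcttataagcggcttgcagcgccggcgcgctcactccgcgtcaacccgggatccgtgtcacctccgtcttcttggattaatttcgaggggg
The E-boxes of Ciart begin 93, 35, and 21 bases before the start, that of Ppp1r3c 54 bases before it, and that of Gadd45b 178 bases before it, and the ROR element of Arntl begins 16 bases before the start. Of the 2 windows of Nr1d1, 1 holds an E-box, and none of these elements is spelled in the windows of Dbp, Nr1d2, and Pik3ip1. Genes with an E-box lay on both sides of the comparison: Ciart, Gadd45b, and Nr1d1 were higher at ZT9 and Ppp1r3c at ZT21. A match of letters describes the window and does not show that a factor binds it.

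The other clock genes missed the threshold, some with differences as large as those of called genes. Of 10 measured repressors, 3 were called higher at ZT9 and 1 higher at ZT21, and at an unadjusted p under 0.05 the counts were 5 and 2. Bhlhe40, a repressor that competes for E-boxes, had a mean of 19.5 ± 4.65 fpkm at ZT9 and 10.2 ± 1.59 at ZT21 (SD, n = 3; 0.86 ± 0.26; limma, unadjusted p = 0.00444, adjusted p = 0.650). Nfil3, the repressor at D-boxes, stood at 4.36, 2.003, and 5.56 fpkm at ZT9 and at 11.5, 9.99, and 16.7 at ZT21. Its 3 rats at ZT21 were all above those at ZT9, but the difference of -1.51 ± 0.29 missed the threshold (limma, adjusted p = 0.0822). Dbp and its competitor Nfil3 thus had the opposite order at these times, although only Dbp was called. Tef, the other PAR bZIP factor measured, had 32.7, 42.5, and 24.97 fpkm at ZT9 against 22.3, 16.3, and 16.1 at ZT21 (0.82 ± 0.20; limma, adjusted p = 0.277). In the other pairs of times Tef was called, higher at ZT13 than at ZT1 and higher at ZT17 than at ZT5 (limma, adjusted p = 0.00199 and 0.00132). For Tef the cosine fitted to the 12 other C rats gave the opposite sign (-0.11).

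The period genes overlapped between the times. Per1 had a mean of 9.11 ± 3.27 fpkm at ZT9 and 5.83 ± 1.46 at ZT21, and Per2 of 4.95 ± 2.10 and 5.26 ± 1.86 (SD, n = 3). Per3 ranged from 2.05 to 9.38 fpkm at ZT9 and from 0.539 to 2.51 at ZT21, with C27 highest (1.25 ± 0.48; limma, unadjusted p = 0.0198). The activators Clock and Npas2 and the repressor Cry2 also overlapped, with differences of -0.33 ± 0.33, 0.16 ± 0.26, and 0.16 ± 0.13. An overlap at these times does not mean a flat daily course. Per1 and Per2 were called higher at ZT13 than at ZT1 and higher at ZT17 than at ZT5 (limma, adjusted p = 0.00199 to 0.0375). Npas2 was called higher at ZT1 and at ZT5 in these pairs (0.0141 and 0.00863), and Cry2 higher at ZT17 than at ZT5 (0.0374). None of the 8 measured clock kinases and ligases reached an unadjusted p under 0.05.

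Among genes outside the clock, the immediate early genes, which cells switch on within minutes of a stimulus, were numerous on the side of ZT21. Of 22 measured, 11 were higher at ZT21 at an unadjusted p under 0.05, against 1.42% of all genes, and 1, Gadd45b, was called and higher at ZT9. None of the 11 was called as deposited. After scaling by median of ratios Klf4 and Btg2 were called higher at ZT21 and Gadd45b was not called. In that fit 14 members were higher at ZT21 at an unadjusted p under 0.05, against 251 of all 10257 genes. With Myl7 as a covariate Btg2 and Nr4a1 were called higher at ZT21 and Gadd45b higher at ZT9. The list had a median difference of -0.63, against 0.06 over all genes, and 21 of 22 had the higher mean at ZT21. The mean at ZT21 was the highest of the 6 times in C rats for 17 of the 22 genes (77.3%), against 9.95% of all genes. This count rests on the same rats of ZT21, C22 included, and was not repeated without C22. The cosine fitted to the C rats of the other times gave the opposite sign for Ier2 (0.04) among the 11. The rest of the 11 kept their sign, from -0.08 for Btg2 to -1.07 for Fos, each smaller in size than the difference between ZT9 and ZT21.

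Klf4, a zinc finger factor, stood at 12.0, 19.1, and 19.8 fpkm at ZT9 and at 38.1, 33.9, and 30.8 at ZT21 (-0.999 ± 0.23; limma, adjusted p = 0.220). Btg2, an antiproliferative gene, had 13.3, 18.7, and 17.7 fpkm at ZT9 and 39.3, 26.6, and 31.2 at ZT21 (-0.92 ± 0.22; limma, adjusted p = 0.277). Dusp1, which encodes a phosphatase of MAP kinases, had 36.3, 28.3, and 50.2 fpkm at ZT9 and 66.5, 65.3, and 79.5 at ZT21 (-0.90 ± 0.23; limma, adjusted p = 0.339). These genes were apart in the 6 rats with a similar level in each rat of ZT21. Fos was different, at 0.807, 1.81, and 8.26 fpkm at ZT9 and 65.5, 9.65, and 15.01 at ZT21 (-2.64 ± 1.02; limma, unadjusted p = 0.0212). Egr1, with 3.56, 4.42, and 4.94 fpkm at ZT9, had 42.1, 9.43, and 13.6 at ZT21 (-1.83 ± 0.68; limma, unadjusted p = 0.0171). In both, C22 was far above the other rats of ZT21, and C22 was the highest of the 6 rats in 16 of the 22 genes, against 968 of all 10257. C22 is also the atrium-rich rat at ZT21, and whether its atrial RNA bears on these genes was not tested. Without C22 the count fell to 6 genes at an unadjusted p under 0.05, with a list median of -0.46, and Fos and Egr1 were no longer among them (limma, unadjusted p = 0.110 and 0.102), while Klf4, Btg2, and Dusp1 stayed (0.00296, 0.00586, and 0.00298). Over all genes and in either direction, 637 had such a p without C22, against 417 with it. Without all 6 C rats above 100 fpkm of Myl7 the count was 14, against 196 of all 10257 genes higher at ZT21. C30 and C38 both exceeded every rat of ZT9 in 10 of the 22 genes, as they did in 332 of all 10257.

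**Figure D4:**
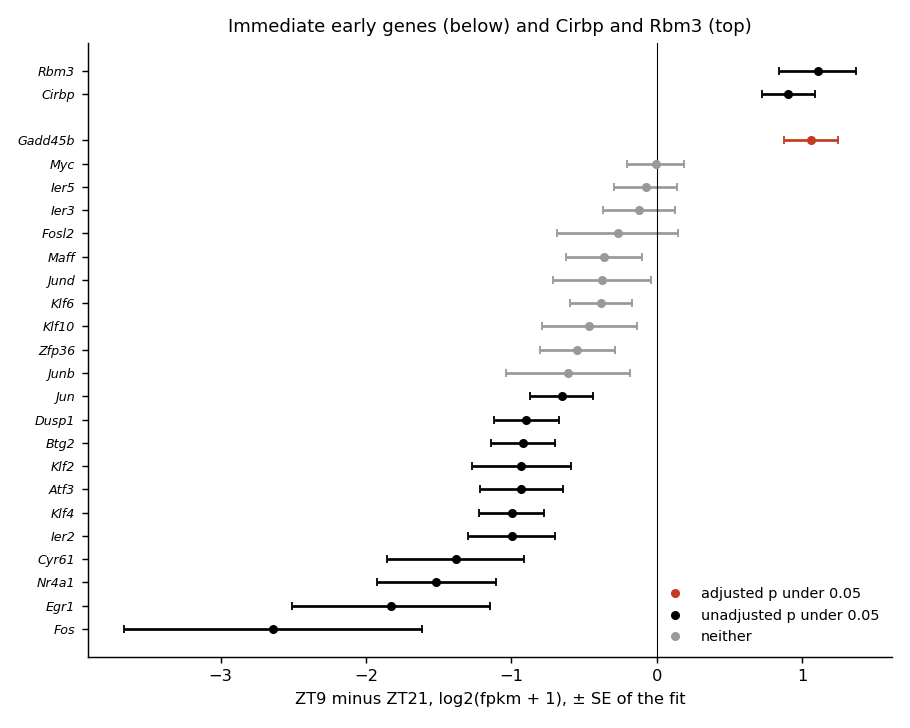
Each point is the ZT9-minus-ZT21 difference of log2(fpkm + 1) in C rats with the SE of the limma fit, for 22 immediate early genes and for Cirbp and Rbm3, colored by the p that the gene passed. All immediate early genes but Gadd45b lie at or below 0, and Fos has the widest SE.

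The cAMP element TGACGTCA, through which CREB factors act on many immediate early genes, was spelled in the windows of 5 of the 15 members that have one, against 3.16% of the windows of all genes measured here. Of these, Btg2, Dusp1, and Ier2 had an unadjusted p under 0.05 and Jund and Maff did not. The elements of the first 3 are given with 12 bases on each side, in the direction of the gene and with the element in capitals.
Btg2: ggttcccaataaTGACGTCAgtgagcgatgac
Dusp1: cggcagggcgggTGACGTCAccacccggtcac
Ier2: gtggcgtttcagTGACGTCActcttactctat
They begin 201, 124, and 66 bases before the start, and the windows of Klf4, Egr1, and Nr4a1 do not spell this element.

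The cold-inducible RNA-binding proteins had the opposite order to the immediate early genes. Cirbp, which encodes an RNA-binding protein that rises when body temperature falls, stood at 29.2, 38.3, and 28.1 fpkm at ZT9 and at 19.3, 12.5, and 18.1 at ZT21 (0.91 ± 0.18; limma, adjusted p = 0.108). Rbm3, of the same family, had 44.1, 74.9, and 52.2 fpkm at ZT9 and 35.5, 21.05, and 21.6 at ZT21 (1.11 ± 0.26; limma, adjusted p = 0.277). Neither was called, although the groups did not overlap in either gene, and ZT9 was the highest of the 6 mean levels in C rats for both. With Myl7 as a covariate both were called (limma, adjusted p = 0.0471 for Cirbp and 0.00307 for Rbm3). Of 29 measured heat-shock proteins and co-chaperones, 0 were called by limma and 2, Hspa8 and Hsp90aa1, were higher at ZT21 at an unadjusted p under 0.05. Both overlapped between the times, with differences of -0.32 ± 0.14 and -0.46 ± 0.21.

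Genes that glucocorticoids induce were split between the times: 9 of 21 had the higher mean at ZT9, and the median difference was -0.11. By limma 0 were called. At an unadjusted p under 0.05, 4 were higher at ZT21 and 2 at ZT9, against 1.42% and 2.64% of all genes. Without C22, 11 of 21 had the higher mean at ZT9 and the median was 0.03. Cdkn1a, which encodes the cell cycle inhibitor p21, had 6.17, 3.56, and 10.7 fpkm at ZT9 and 21.3, 16.4, and 26.5 at ZT21 and only just missed the threshold (-1.60 ± 0.29; limma, adjusted p = 0.0592). The kinase gene Sgk1 and the receptor co-chaperone gene Fkbp5 were apart in the 6 rats, and their means were 1.81-fold and 2.18-fold higher at ZT21 (limma, adjusted p = 0.336 and 0.351). The fourth member higher at ZT21 was Dusp1, and the 2 higher at ZT9 were Arrdc2 (0.42 ± 0.17) and the factor gene Klf9 (0.66 ± 0.28), of which Klf9 overlapped between the times.

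For fuel genes the data showed single members rather than whole pathways. Of 33 genes of glucose uptake, glycolysis, and glycogen, Ppp1r3c was called, Pfkfb2 was the other one higher at ZT21 at an unadjusted p under 0.05, and Pygb, a glycogen phosphorylase gene, was higher at ZT9. Pygb had 84.4, 84.0, and 90.6 fpkm at ZT9 and 59.7, 54.6, and 56.1 at ZT21, with little spread inside either group (0.60 ± 0.14; limma, adjusted p = 0.277). The phosphorylase breaks glycogen down, whereas the protein of Ppp1r3c favors its synthesis. Of 41 genes of PPARα and fatty acid use, 0 were called by limma and 3 were higher at ZT21 at an unadjusted p under 0.05, namely the mitochondrial carrier gene Ucp3 (-1.32 ± 0.37) and the thioesterase genes Acot1 (-0.62 ± 0.26) and Acot2 (-0.57 ± 0.23). G0s2, an inhibitor of lipolysis, had 26.3, 36.04, and 54.4 fpkm at ZT9 and 106, 75.1, and 121 at ZT21, with no overlap (-1.39 ± 0.31; limma, adjusted p = 0.196). The cosine fitted to the 12 other C rats gave the opposite sign for Ucp3 (0.43), Acot1 (0.38), Acot2 (0.43), Pfkfb2 (0.61), and Pygb (-0.23). It gave the same sign for Ppp1r3c (-0.63) and G0s2 (-1.24). The list of fatty acid genes had a median of -0.20, which rested on the atrium-rich rat C27: without it the median was 0.09 and 25 of 41 genes had the higher mean at ZT9, against 7 of 41 with it, and 1 gene was higher at ZT21 at an unadjusted p under 0.05.

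Of 34 genes of ion channels, calcium cycling, and gap junctions, 3 potassium channel genes were higher at ZT9 at an unadjusted p under 0.05 and 0 were called by limma. Kcnh2, which encodes the channel of the rapid delayed rectifier, had 14.8, 17.6, and 12.4 fpkm at ZT9 and 7.68, 9.29, and 10.8 at ZT21 (0.64 ± 0.15; limma, adjusted p = 0.293). Kcnq1, of the slow delayed rectifier, and Kcnd3, of the transient outward current, had differences of 0.35 ± 0.14 and 0.52 ± 0.23. Kcnq1 did not overlap between the times and Kcnd3 did, and C27 was the highest rat for Kcnh2 and Kcnd3. The cosine fitted to the 12 other C rats gave the opposite sign for Kcnh2 (-0.03) and Kcnd3 (-0.03) and the same sign for Kcnq1 (0.19). Without the 6 C rats above 100 fpkm of Myl7, 1 gene of the list was higher at ZT9 and 1 at ZT21 at an unadjusted p under 0.05, and the median of the list moved from 0.05 to -0.06. Without C27 alone that median was -0.15, and it was -0.04 after scaling by median of ratios.

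The large housekeeping groups gave no calls. Among 76 genes of oxidative phosphorylation, 18 of the citric acid cycle, and 71 mitochondrial ribosomal proteins, 0 were called by limma and 0 reached an unadjusted p under 0.05. Of 78 cytosolic ribosomal proteins, 77 had the higher mean at ZT9, against 6623 of all 10257 genes, with a median difference of 0.13 and 0 at an unadjusted p under 0.05, and after scaling by median of ratios the count was 60 and the median 0.03. The signs of these groups moved with the rats: of the 76 genes of oxidative phosphorylation, 33 had the higher mean at ZT9, and without the 6 C rats above 100 fpkm of Myl7 74 did.

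The same contrast was set beside W and WRF rats (n = 3 per time), whose values and differences from C rats come from a fit to all 54 rats. The values of C rats stay those of the fit to 18 C rats, so SEs of C and of W or WRF rats are from different fits. In W rats 0 genes were called (0%), with 29 at an unadjusted p under 0.05, and in WRF rats 2, Nr1d1 and Bhlhe40, were called (0.0195%), with 3167 at an unadjusted p under 0.05. The difference between W and C rats was called for 0 genes (0%), with 62 at an unadjusted p under 0.05, and that between WRF and C rats for 0 (0%), with 745. Nr1d1 differed by 1.24 ± 0.52 between ZT9 and ZT21 in W rats and by 2.73 ± 0.52 in WRF rats, against 3.904 ± 0.17 in C rats, and Dbp by 1.89 ± 0.66 and 2.78 ± 0.66 against 3.95 ± 0.16. For Nr1d1 the W-minus-C difference was -2.66 ± 0.73 (limma, unadjusted p = 0.000778, adjusted p = 1.0). Arntl had -1.55 ± 0.53 in W, -1.53 ± 0.53 in WRF, and -1.78 ± 0.24 in C rats. These 9 genes were chosen for their difference in C rats, which also enters the comparison, so smaller values in W and WRF rats are a description only. In 1 series of W rats the order of Nr1d1 was turned: it stood at 13.1 fpkm in W35 at ZT9 and at 34.6 in W38 at ZT21, against 32.9 and 43.1 at ZT9 and 4.89 and 6.65 at ZT21 in the other W rats. Dbp was level in W35 and W38, at 36.3 and 36.9 fpkm, and Arntl kept its order, at 0.841 and 3.87. Without the series W33 to W38, Nr1d1 was at 2.53 ± 0.41 and Dbp at 2.85 ± 0.51 in W rats, and 2 genes were called.

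The library of WRF51 (ZT9) held 1419 fpkm of Ager, a lung epithelial gene whose highest C rat had 4.79, and that of WRF62 (ZT5) held 106 fpkm of the T cell gene Cd3e, against at most 2.91. Without these 2 rats 0 genes were called between ZT9 and ZT21 in WRF rats (limma), with 420 at an unadjusted p under 0.05, and Nr1d1 differed by 2.76 ± 0.59 and Dbp by 2.87 ± 0.75. Gadd45b had 1.21 ± 0.42 in WRF rats and 0.27 ± 0.23 without them. The immediate early genes were not higher at ZT21 in WRF rats: 0 of 22 had the higher mean there, their median difference was 0.71, and 17 of 22 had a WRF-minus-C difference above 0 at an unadjusted p under 0.05, against 540 genes (5.26%) overall. Without WRF51 and WRF62 the median in WRF rats was 0.28, 3 of 22 had the higher mean at ZT21, and 11 of 22 had such a difference, against 1.66% of all genes. None of the 22 was called. In W rats their median was -0.17, 17 of 22 had the higher mean at ZT21, and 1 had a W-minus-C difference above 0 at an unadjusted p under 0.05.

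**Figure D5:**
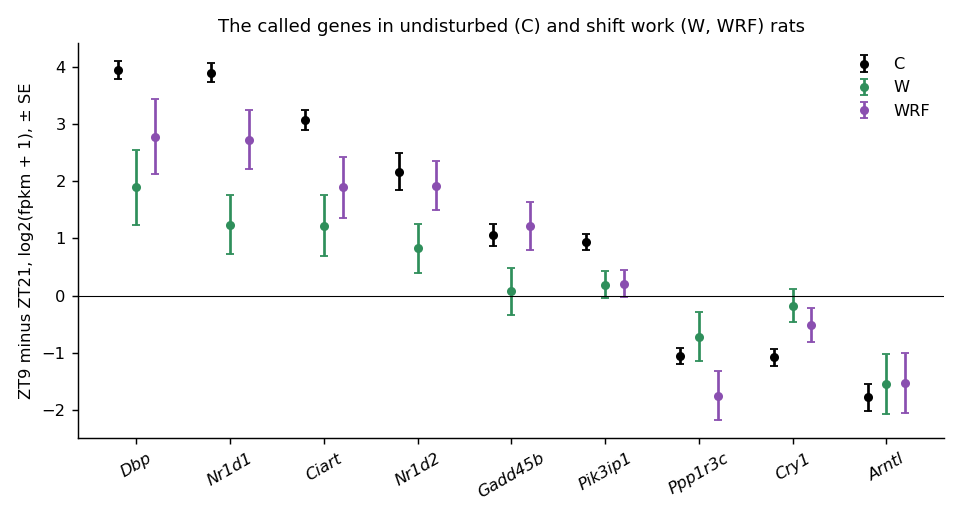
Points are the ZT9-minus-ZT21 differences of log2(fpkm + 1) of the 9 called genes in C (black), W (green), and WRF (purple) rats, with the SE of the fit to 18 C rats for C and to 54 rats for W and WRF. The points of W rats lie nearer to 0 than those of C rats for all 9 genes, and those of Arntl, Nr1d2, and Gadd45b in WRF rats lie within 1 SE of the WRF fit of the C values, of which Gadd45b is at 0.27 without WRF51 and WRF62.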

How the data were processed

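Heart polyA RNA of 54 rats was sequenced from directional libraries. The authors aligned the reads to rn6 with TopHat2 and estimated fpkm with Cufflinks (versions not given in the sources used here), and deposited the FPKM of genes above 1 fpkm in at least 18 rats. FPKM do not hold read counts, and the library sizes that the paper tabulates were not used here. All 54 columns were used, and 0 were left out. Rats were grouped by their titles. For 12 WRF rats the title and the other labels give different times, and the labels' times were an alternative.

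Differences were tested with limma 3.58.1 (R 4.3.3, eBayes with trend) on log2(fpkm + 1), with 1 mean per time over the 18 C rats (12 residual degrees of freedom) and Benjamini-Hochberg adjustment. Between paradigms, 18 means over 54 rats and interaction contrasts were used. With 3 rats against 3, exact permutation cannot go below p = 0.1. The fit was tested on simulated data with planted genes. Tables and plots used Python 3.11.15, pandas 2.3.3, numpy 2.4.6, and matplotlib 3.10.9. Promoter windows are RefSeq's (GRCr8), and 8135 of 10257 entries were matched.

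The rats, gene lists, and tests were chosen with earlier results of these data known. Named genes were those called with a mean of at least 5 fpkm and no overlap, every clock gene, and, per list, the members with the smallest p (at most 3). Where fewer than 6 of a direction were called, the next genes were added and said to miss the threshold. All other named genes, such as the further immediate early genes, were chosen after their values were seen. In all, 497 entries share their values with another entry. Alternatives were another pseudocount, a filter on the mean, scaling by median of ratios, other sets of rats, a block by series of 6 rats, Myl7 as a covariate, and each rat left out. Fits to the 36 C and W rats, to the C and WRF rats less WRF51 and WRF62, to the 18 W rats, and to 16 WRF rats were added after seeing the data.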

Additional observations from a re-analysis of the deposited data

How the results depend on the processing

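The 9 calls in C rats became 15 at an adjusted p under 0.1, 4 in a fit to all 54 rats, 3 with only the 6 rats at ZT9 and ZT21, and 20 with Myl7 as a covariate. They were 6 to 11 when single rats were left out, the lowest without C30, which lost Gadd45b, Nr1d2, and Pik3ip1. After scaling by median of ratios 12 were called, 6 in each direction. Without the 6 C rats above 100 fpkm of Myl7, 8 were called, all higher at ZT9, and 4 of the 9 were kept. The genes gained were Krt19, Krt8, Nkain4, and Wfdc21. Krt19 and Krt8 are mesothelial markers, whose list was also higher in the ZT9 rats left in this fit. The part of tissue composition in these calls was not tested. Dbp, Nr1d1, and Ciart were called under each of 17 alternatives, and Gadd45b under 9. Rats of the same series at ZT9 and ZT21 had correlations of -0.458, 0.096, and 0.711 after removing time means, and 1 of the 3 rats of ZT9 correlated best with its own series. The atrium-rich rats C27 and C22, of different series, had 0.66. With 3 rats per time these values cannot show whether the series pairs the rats. With the series as a block, 13 genes were called between ZT9 and ZT21, with 623 at an unadjusted p under 0.05 (limma) against 417 without it. The block gave 67 calls between ZT1 and ZT13 and 47 between ZT5 and ZT17, against 37 and 32 without it. Of the genes named, 2 changed sign: with single rats left out, Per2 ran from -0.34 to 0.21 (above 0 without C22 or C35), and Npas2 from -0.16 to 0.43 (below 0 without C27 or C38).

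In W rats 2 genes were called without W33 to W38. In WRF rats 0 were called after scaling by median of ratios, with the labels' times, without WRF51 and WRF62, and in a fit to the other 16 WRF rats alone, and the count ran from 0 to 3858 when single rats were left out. The highest counts, 3858 without WRF3 and 1175 without WRF41, leave the lung-containing WRF51 as 1 of 2 rats at ZT9. The WRF-minus-C difference was called for 0 to 1 genes when single rats were left out, 1 without WRF3. The causes were not tested. With no counts, the precision of low genes such as Ciart at ZT21 cannot be given.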

Other observations

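A few genes outside the lists came close to the threshold, and they were chosen after their values were seen. Tbc1d10c, which encodes a negative regulator of calcineurin and Ras signaling, stood at 19.7, 29.4, and 19.2 fpkm at ZT9 and at 11.7, 6.72, and 9.97 at ZT21 (1.18 ± 0.21; limma, adjusted p = 0.0592). Hnrnpd, an RNA-binding protein gene, differed by 0.52 ± 0.12 (limma, adjusted p = 0.229). Tmem86a and the endocytic gene Ehd4 were also higher at ZT9, by 1.08 ± 0.21 and 0.59 ± 0.12 (adjusted p = 0.0767 and 0.108). In the other direction the nuclear receptor coactivator gene Pnrc1 and Palmd had differences of -0.67 ± 0.13 and -0.70 ± 0.14 (adjusted p = 0.0736 and 0.108). The 3 rats of one time lay above those of the other in each of these genes.

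Of 28 sarcomere and Z-disc genes, 0 were called by limma and 2 were higher at ZT9 at an unadjusted p under 0.05. Tcap, which encodes telethonin, ranged from 286 to 665 fpkm at ZT9 and from 212 to 380 at ZT21, with C27 the lowest of its group, and Ankrd1, a stretch-responsive gene, ranged from 1190 to 1660 and from 1038 to 1050. The calcineurin inhibitor gene Rcan1 had 48.0, 48.2, and 65.6 fpkm at ZT9 and 91.5, 69.0, and 82.6 at ZT21 (-0.58 ± 0.19; adjusted p = 0.742). Of 14 genes of polyamine synthesis, Amd1 was higher at ZT21 (-0.40 ± 0.14; adjusted p = 0.838).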
